A study of Porphyridium purpureum with 12 samples.

Results

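The genes described here are those of the unicellular red microalga Porphyridium purpureum whose transcripts were raised in late nitrogen depletion (LND). Before it they stayed, by their means, less than 1 log2 unit from the nitrogen-replete condition. They were chosen from 9898 genes by a rule on the measured values, and 91 genes met it. Counts of each library were divided by its DESeq2 size factor (the result is called a normalised count below), averaged over the 3 libraries of a condition and taken as log2(mean + 1). A gene was kept when its LND mean was at least 50, when LND lay at least 1.5 log2 units above each of the 3 other conditions, and when both nitrogen-limited conditions lay less than 1 log2 unit from the nitrogen-replete one. The rule also left out 6 genes by name, of which only the phosphoenolpyruvate carboxykinase gene POR8724 met its thresholds. The rise in LND and the limited change before it are therefore the choice itself and not a finding, and they are given without a test.

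The samples were P. purpureum strain 1380/1A, grown as 4 L cultures in photobioreactors under continuous light in a modified Provasoli medium. RNA was taken at residual NaNO3 of 1.5 g/L (nitrogen-replete, NR), 0.6 g/L and 0.5 g/L (nitrogen-limited, NL1 and NL2) and 0.3 g/L (LND, labelled ND in the deposit), with 3 libraries per condition and 12 in all. As the 4 conditions follow each other in time, residual nitrate, the age of the culture and its phase of growth cannot be told apart. Per the labels, libraries that share a condition are technical replicates of 1 biological sample, and p-values then measure only the spread between libraries. Whole cultures were extracted, so more transcript in every cell and transcript in more of the cells cannot be told apart either.

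Nitrogen starvation in algae is known to slow protein synthesis and cell division while carbon goes on being fixed, so that cells turn over their own proteins and store or secrete carbohydrate. Enzymes that recover carbon and nitrogen from amino acids, the ubiquitin system that marks proteins for degradation, and chaperones and detoxifying enzymes are among the functions commonly studied in this state. Messenger RNA levels, as measured here, say nothing on the amount or activity of these proteins.

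NR replicate 3 had the lowest total, 6398926 counts, and NL2 replicate 2 the highest, 30556820. The 13 photosynthesis genes taken from the tables of the study, which mark a photosynthetic cell, were detected in all 12 libraries. The nitrate reductase genes POR6787 and POR8251 fell from mean normalised counts of 6591 and 2578 in NL2 to 932 and 393 in LND, both called lower by edgeR in that comparison. One library stood apart: NR replicate 3 held the fewest counts, and the 91 genes were low in it, as described below.

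The 91 genes went from 2.28% ± 0.426 of all counts in NR (SD, n = 3), 2.49% ± 0.0804 in NL1 and 2.23% ± 0.0551 in NL2 to 8.00% ± 0.197 in LND. In single libraries their share was 2.63%, 2.40% and 1.81% in NR, 2.47%, 2.58% and 2.43% in NL1, 2.29%, 2.21% and 2.19% in NL2, and 7.81%, 8.20% and 7.98% in LND. NR replicate 3 held the lowest share of the 12. The 3 members with most counts in LND took 31.6% to 34.0% of the members' counts there, and without them the share was still 5.31% to 5.45% in LND against 1.09% to 1.76% in the 9 other libraries.

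**Figure D1:**
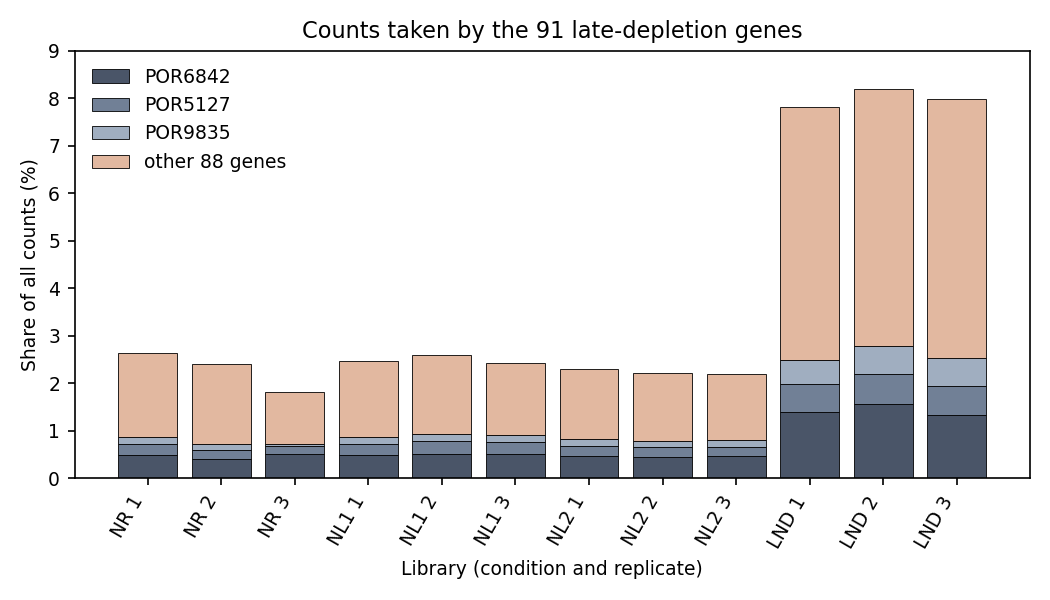
Share of all counts (%) that fell on the 91 genes in each of the 12 libraries, stacked as the 3 members with most counts in LND and the other 88. The LND bars reach 7.81% to 8.20%, and the 9 others stay between 1.81% and 2.63%.

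In every one of the 91 genes all 3 LND libraries lay above all 9 other libraries, against 14% of the 8983 genes tested in the 3 comparisons with LND. The rule asked for a raised LND mean in these same libraries, so this separation largely follows from the choice and nothing is read from the contrast. The lowest LND library exceeded the highest other library 2.71-fold in the median member, and between 1.22-fold (POR8509) and 17.9-fold (POR1446). The excess of LND over the highest of the 3 other conditions had a median of 1.82 log2 units, or 3.54-fold, and ran up to 4.59 log2 units, or 24.1-fold. It was at least 2 log2 units in 26 members, at least 3 in 8 and at least 4 in 3. The quartiles were 3.12-fold and 4.16-fold, so the members with very large rises were few. The highest of the 3 earlier conditions was NR in 40 members, NL1 in 39 and NL2 in 12.

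**Figure D2:**
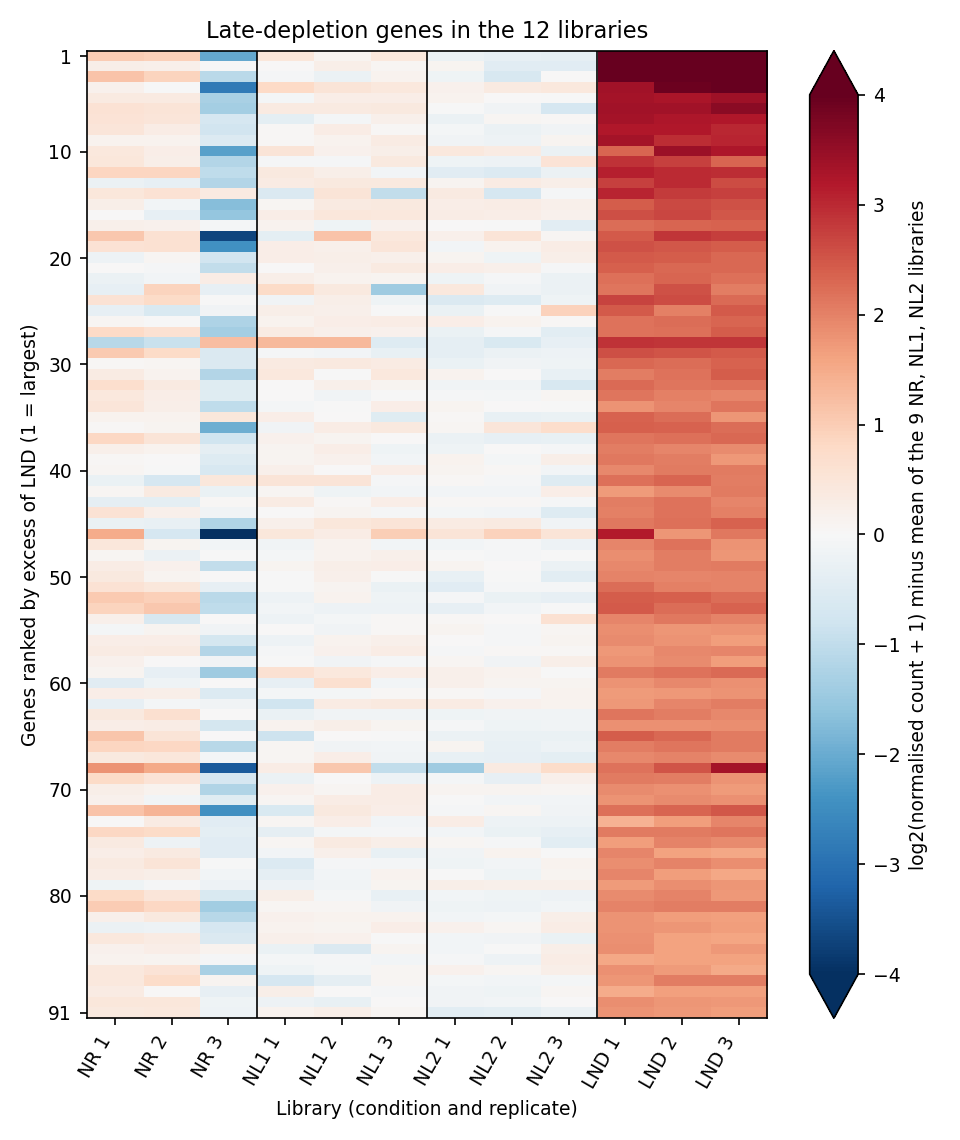
Each row is 1 of the 91 genes, ranked by its excess in LND, and each column 1 library. Colour gives log2(normalised count + 1) minus the mean of the 9 NR, NL1 and NL2 libraries, from -4 to 4 with larger values at the end of the scale. The LND columns lie 1.40 to 5.19 log2 units up, and most of the darkest blue cells stand in NR replicate 3, down to -4.53.

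Members also had high counts. Their median LND mean was 7729 normalised counts against 719 over all 8983 tested genes, and 38 members (41.8%) exceeded 10000 against 4.22% of those genes. The rule set a minimum LND mean and a rise in LND, and the tested genes had to meet neither, so this contrast is in part the choice itself. Before the rise the median NR mean was 1512 against 739. These values are not divided by gene length, so they compare counts and not transcript numbers between genes.

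Of the 91 genes, 21 have an entry in the tables of the study as read here. Named products are given for 9 of these 21 and 12 are called hypothetical or uncharacterized, so for most of the group no function can be stated here. The annotation read here is shortened, and the other 70 members may have a product name in the full version. The table of leading differentially expressed genes (DEGs) that names these products lists 53 genes in all and was drawn up from these same libraries, so that 21 of 53 are members is not independent evidence.

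Of the enzymes of central metabolism in the group, the NADP-dependent malic enzyme POR0986, annotated as chloroplastic, had the largest rise. Malic enzyme turns malate into pyruvate and CO2 and yields NADPH. Its normalised counts were 8268, 8051 and 2160 in NR, 7130, 7185 and 7323 in NL1, 5552, 5083 and 3467 in NL2, and 56936, 57839 and 68833 in LND. LND lay 3.08 ± 0.09 log2 units (SE, n = 3) above NL1, the highest other condition, which is 8.48-fold. Every LND library was at least 6.89 times the highest of the 9 others, and in NR the third replicate was low.

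The 4-aminobutyrate aminotransferase gene POR3240 encodes the enzyme that starts the breakdown of 4-aminobutyrate (GABA) by moving its amino group to an acceptor acid. Its normalised counts were 15200, 14239 and 6081 in NR, 15657, 16990 and 17666 in NL1, 16955, 15802 and 14662 in NL2, and 64012, 66406 and 70897 in LND. Its rise over NL1 was 2.00 ± 0.07 log2 units (SE), or 4.00-fold. Apart from NR replicate 3, the earlier libraries stayed within a narrow band.

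A channel and a further membrane protein stand in the group, both known mainly from other organisms. SLAH3 in Arabidopsis is an S-type anion channel that carries nitrate and chloride out of cells, and POR7461 is annotated as such a channel. POR7461 had 10049, 10257 and 5200 normalised counts in NR, 9389, 9834 and 9130 in NL1, 8235, 7525 and 7726 in NL2, and 29938, 29735 and 30433 in LND, 1.67 ± 0.03 log2 units (SE) above NL1. TspO proteins are tryptophan-rich membrane proteins that bind tetrapyrroles such as heme and porphyrins, and in Arabidopsis TSPO is a stress-induced protein. The TspO gene POR4809 had 4832, 3863 and 1577 normalised counts in NR, 3090, 2925 and 2769 in NL1, 2319, 2194 and 2226 in NL2, and 12060, 12484 and 13276 in LND, which is 1.88 ± 0.50 log2 units (SE) above NR. In both genes NR replicate 3 was the lowest of the 12 libraries, and the LND libraries stood clear of all others.

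For the stress genes, a putative glutathione S-transferase and a small heat shock protein were members. Glutathione S-transferases join glutathione to reactive or foreign compounds, and the plant enzyme GSTU6 belongs to the tau class. POR1698 (GSTU6) had 5134, 5081 and 1402 normalised counts in NR, 3667, 3346 and 2627 in NL1, 2066, 1933 and 2376 in NL2, and 24185, 22526 and 21699 in LND, 2.56 ± 0.62 log2 units (SE) above NR. Its mean was 3873 in NR, 3213 in NL1 and 2125 in NL2, and NR replicate 3 was the lowest of the 12 libraries.

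Small heat shock proteins are chaperones that hold unfolding proteins and keep them from aggregating. The gene POR6677 (small heat shock protein C3) had 5288, 3487 and 2493 normalised counts in NR, 1394, 2480 and 2410 in NL1, 2077, 2065 and 2031 in NL2, and 13119, 12119 and 10393 in LND. LND lay 1.66 ± 0.33 log2 units (SE) above NR. Of its relatives in the DEG table, POR3921, which carries the same product name, and POR6190 (small heat shock protein C4) were not members. POR3921 had an excess of 1.22 log2 units in LND, with NL1 and NL2 at -1.07 and -1.29 from NR, and so missed both limits. POR6190 had an excess of 1.49, with NL1 and NL2 at -0.77 and -0.91 from NR, and missed only the excess. POR1316, named as a chloroplastic heat shock 22 kDa protein, was not a member either. It had an excess of 1.09, with NL1 and NL2 at -1.03 and -1.14 from NR. POR3921, POR6190 and POR1316 were all called higher in LND vs. NR, NL1 and NL2. Genes that share a product name may share reads, and how alike these sequences are was not examined.

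The regulatory products in the group were 2 ubiquitin ligase proteins and a Myb-like protein. The E3 ubiquitin ligase gene POR0345 is named for RIE1, a RING-finger protein of Arabidopsis needed for seed development. It had 9390, 8244 and 3932 normalised counts in NR, 6917, 8149 and 6870 in NL1, 6286, 5676 and 6090 in NL2, and 61388, 61426 and 53982 in LND. At 3.01 ± 0.10 log2 units (SE) above NL1, or 8.06-fold, its excess was nearly that of the malic enzyme. RMD5 of yeast is a subunit of the GID ubiquitin ligase, which marks gluconeogenic enzymes for degradation when glucose returns. The RMD5-like gene POR2732 had 7576, 6660 and 1416 normalised counts in NR, 3922, 3975 and 3436 in NL1, 3347, 3296 and 3509 in NL2, and 14972, 15529 and 15550 in LND, 1.56 ± 0.78 log2 units (SE) above NR. NR replicate 3 was again the lowest library of the 12, and the NR libraries were spread widely.

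Myb-like proteins carry a DNA-binding domain found in many transcription factors of plants and algae. POR8142 (Myb-like protein G) had 16716, 17269 and 12078 normalised counts in NR, 13502, 15336 and 11511 in NL1, 10390, 10221 and 9725 in NL2, and 48521, 49815 and 46789 in LND. Its rise was 1.66 ± 0.17 log2 units (SE) over NR, and the mean was 15354 in NR, 13449 in NL1 and 10112 in NL2.

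**Figure D3:**
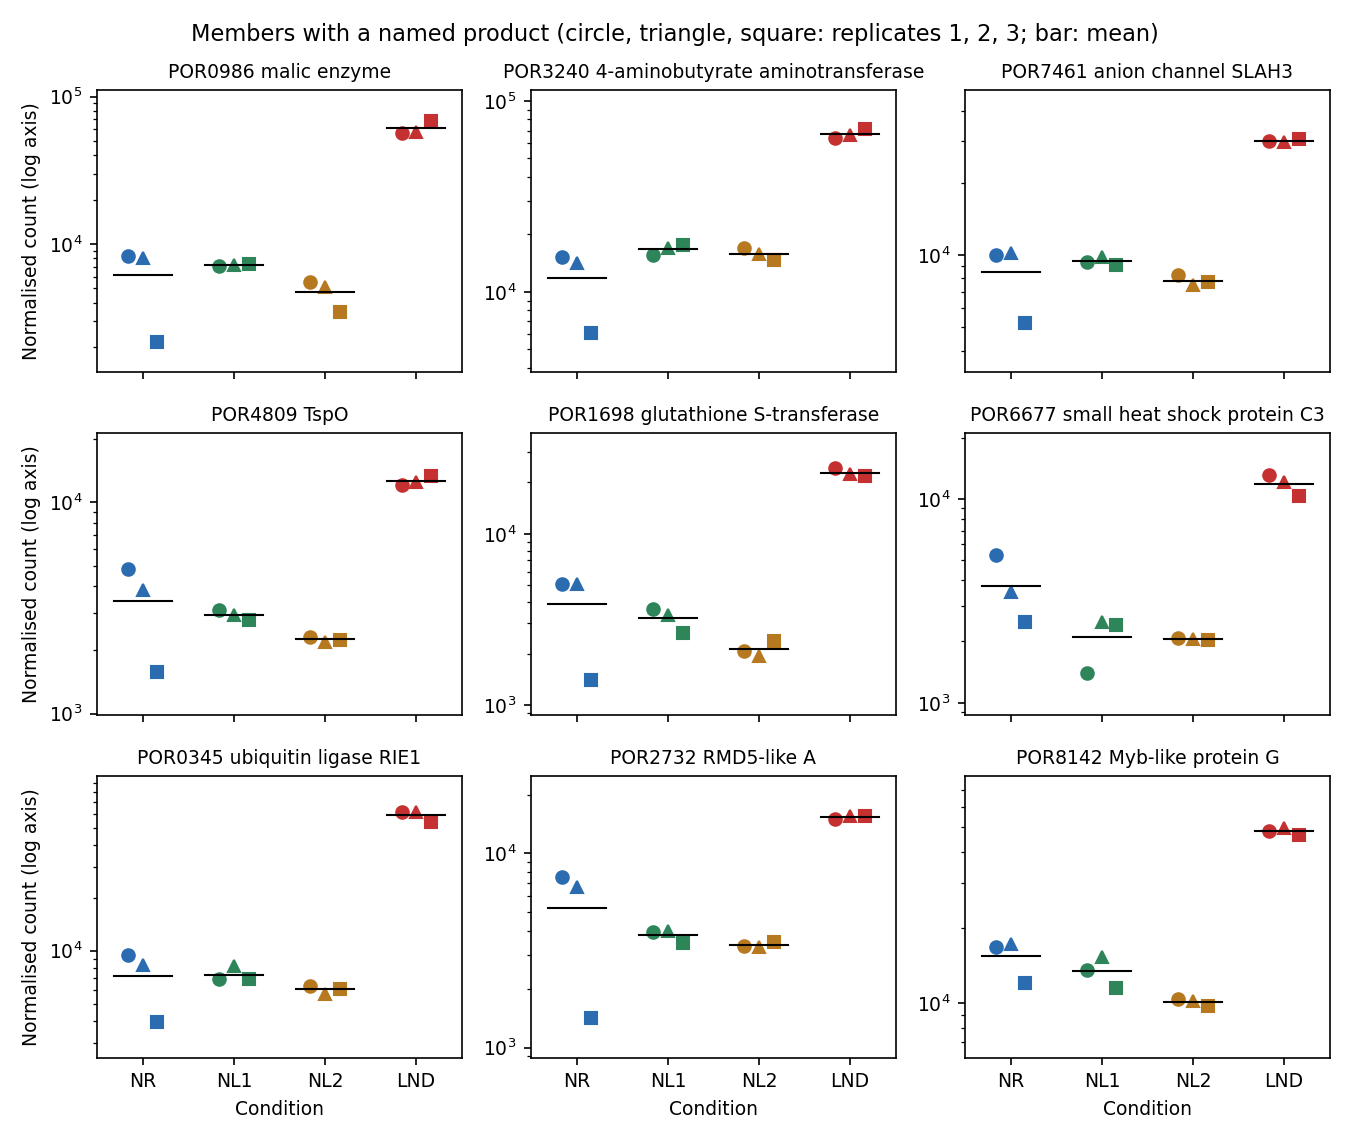
Normalised counts (log axis) of the 9 members with a named product in each library, with circles, triangles and squares for replicates 1, 2 and 3 and a bar at the mean. All 3 LND points lie above the 9 others in each panel, for the malic enzyme POR0986 at 56936 to 68833 against 2160 to 8268.

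The largest rises were found in genes without a known function. The hypothetical protein gene POR3533 had 2453, 2356 and 297 normalised counts in NR, 1694, 1309 and 1652 in NL1, 1051, 971 and 958 in NL2, and 44612, 40614 and 37755 in LND. This is the 24.1-fold rise given above, 4.59 ± 1.01 log2 units (SE) above NR, where replicate 3 was low. Without NR replicate 3 its excess was 4.09 log2 units, below the 4.31 of POR1446. POR3533 stood at rank 2179 of all genes by mean normalised count in NR and at rank 74 in LND. POR1446, also hypothetical, had 395, 386 and 328 normalised counts in NR, 339, 389 and 350 in NL1, 362, 240 and 245 in NL2, and 8451, 7910 and 7067 in LND. At 4.40 ± 0.11 log2 units (SE), or 21.1-fold, it is the member best separated from its earlier values, NR replicate 3 included.

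The third of these was POR8716, with 1473, 1239 and 322 normalised counts in NR, 652, 568 and 751 in NL1, 598, 430 and 689 in NL2, and 20642, 18455 and 17044 in LND. Its excess was 4.21 ± 0.70 log2 units (SE). Behind these 3 the next hypothetical members were POR3949 at 3.17 ± 0.12 and POR9545 at 3.04 ± 0.40 log2 units (SE). POR3949 is one of the steadier ones apart from NR replicate 3, at 1396, 1399 and 441 normalised counts in NR, 1019, 1319 and 1295 in NL1, 1198, 1088 and 1066 in NL2, and 10970, 10502 and 11352 in LND.

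Members with no entry in the tables as read here also rose strongly. POR9131 lay 3.23 ± 0.24 log2 units (SE) above NL1, POR3238 2.94 ± 0.14, and POR0526 2.75 ± 0.35. The last has few counts, with 73.0, 65.6 and 11.1 normalised counts in NR, 77.3, 60.9 and 64.3 in NL1, 73.1, 68.7 and 46.0 in NL2, and 276, 588 and 516 in LND. LND replicate 1 lay well below the other LND libraries but above all 9 earlier ones.

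By counts the leading member was POR6842, which has no entry in the tables as read here either. It had 96142, 77521 and 90931 normalised counts in NR, 87320, 100208 and 104568 in NL1, 91400, 88472 and 91546 in NL2, and 335500, 377498 and 308948 in LND. This gene was already at rank 14 of all genes in NR and came to rank 2 in LND, where it took 1.32% to 1.56% of all counts against 0.404% to 0.517% before. NR replicate 3 was not low for it. The hypothetical protein genes POR5127 and POR9835 followed, with LND means of 147405 and 133137 normalised counts and an excess of 1.62 ± 0.08 and 2.25 ± 0.12 log2 units (SE).

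Other abundant members were POR1970, POR5795 and POR8349, with LND means of 77301, 65088 and 50361 normalised counts. They lay 1.61, 2.21 and 1.80 log2 units above NL1. The remaining annotated members, POR0256, POR0508, POR7395 and POR4095, are hypothetical or uncharacterized, with an excess of 1.61, 1.96, 1.77 and 1.97 log2 units. The 56 members outside the naming rule had LND means from 323 to 45362 normalised counts and an excess of 2.85- to 5.90-fold, with a median of 3.46-fold.

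In the gene lists copied here from the tables of the study, which may not hold all genes of each, no member was found, and members were 0.919% of all 9898 genes, so that counts of 0 are near that share. The count was 0 of 10 genes of nitrogen metabolism, 0 of 13 of photosynthesis, 0 of 20 of glycolysis and gluconeogenesis, 0 of 7 of the pentose phosphate pathway, 0 of 18 of oxidative phosphorylation, 0 of 14 of nucleotide sugars and polymerization, and 0 of 89 carbohydrate-active enzymes (CAZymes). The study picked all of these lists but the CAZymes from these libraries. The rule left out the CAZyme genes POR4239, POR6823 and POR5976 by name, but their excess was 0.88 to 1.37 log2 units and they would not have met it. Among the CAZymes 6 of 87 tested were called higher in LND vs. NR, 3 of 87 in LND vs. NL1 and 4 of 87 in LND vs. NL2, beside 7.96%, 6.51% and 6.96% of all genes tested, and 9 were called lower each time, beside 11.8%, 5.75% and 6.52%. In the glycolysis list these counts were 11, 6 and 5 of 20 higher and 3, 3 and 4 lower. The pyruvate decarboxylase gene POR0764 had the largest excess of this list, 2.37 log2 units in LND, and its NL1 and NL2 means lay 1.48 and 1.53 log2 units above NR. Phosphoenolpyruvate carboxykinase, an enzyme of gluconeogenesis, is not in the list as copied. Its gene POR8724, left out by name, had an excess of 2.39 log2 units, with NL2 0.88 below NR.

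All genes were also compared between pairs of conditions in edgeR (quasi-likelihood test, Benjamini-Hochberg adjustment). A gene was called when its adjusted p was under 0.01 and its log2FC was 1 or more in size. In LND vs. NR, 86 of the 91 members were called higher, beside 7.96% of all genes tested. In LND vs. NL1 all 91 were called higher (6.51% of all genes), and in LND vs. NL2 all 91 too (6.96%). The rule used these 3 contrasts, so nothing is read from the counts, and no p is given for a member. The 5 genes not called in LND vs. NR were POR2362, POR2732, POR5018, POR6053 and POR8509. Their fitted log2FC was 1.53 to 2.32 with an SE of 0.47 to 0.93, and in all 5 NR replicate 3 was the lowest NR library.

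The thresholds cut through a continuous range. Just inside the excess of 1.5 lay POR8526 (1.50) and POR8391 (1.51), and just outside it POR4830 and POR5110 (both 1.49). For the limit on the nitrogen-limited conditions the nearest inside were POR9131, with NL1 0.99 above NR, and POR2362, with NL2 0.97 below NR, and the nearest outside POR2343 and POR4817, with NL1 1.02 above NR. POR2343, named as a blue-light photoreceptor, reached 315688 normalised counts in LND. The LND minimum decided little, since the lowest members had LND means of 68.6 (POR2362) and 129 (POR8509) and the nearest genes outside only 7.69 (POR1253) and 6.27 (POR8944). In all, 22 further genes lay at least 1.5 log2 units above each other condition in LND but had NL1 or NL2 at least 1 log2 unit from NR, 12 of them above NR and 10 below it, and 2 of the 10 were left out by name (POR7844 and POR5270).

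Before the rise the members did not run alike. NL1 and NL2 both lay above NR in 33 members (36.3%), both below in 40 (44.0%), and on either side in 18. Over all 8983 tested genes both lay above NR in 44.0% and both below in 45.8%, so the members' share below NR is near that of all genes. The 5 that lay highest were POR9131, POR5795, POR9416, POR4840 and POR9835. POR9416, for example, had 7698, 7518 and 4020 normalised counts in NR, 10638, 12597 and 13099 in NL1, 11409, 11889 and 8365 in NL2, and 39231, 42370 and 47114 in LND, and on the means NL1 lay 0.92 and NL2 0.72 log2 units above NR. At the other end stood POR6677, POR2362, POR7083, POR0508 and POR5018. POR7083 had 1443, 1667 and 383 normalised counts in NR, 724, 686 and 687 in NL1, 626, 733 and 775 in NL2, and 4268, 3661 and 4014 in LND, with NL1 at -0.74 and NL2 at -0.71 log2 units from NR. Its NL libraries lay between NR replicate 3 and the other NR libraries.

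None of the 91 was called in NL1 vs. NR or in NL2 vs. NR by edgeR's quasi-likelihood test, beside 14.5% and 16.4% of all genes tested, and none by DESeq2 with either of its tests. Unadjusted p-values under 0.05 were found for 12 members in the first of these comparisons and 16 in the second, beside 44% and 47.1% of all genes tested. A limit of less than 1 log2 unit was part of the rule, so few calls could have been made.

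The course before LND depended on 1 library. NR replicate 3 lay below the mean of NR replicates 1 and 2 in 81 of the 91 genes, with a median offset of -0.84 log2 units, against -0.014 over the 8580 tested genes with an LND mean of at least 50. In 37 members (40.7%) it lay at least 1 log2 unit below, against 9.07% of those genes. When the rule was applied without this library it chose 71 genes, and NR replicate 3, which then had no part in the choice, lay below in 58 of them, with a median offset of -0.65. The SD of log2 values within NR had a median of 0.54 over the members against 0.28 over those genes, while within LND it was 0.10 against 0.16.

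**Figure D4:**
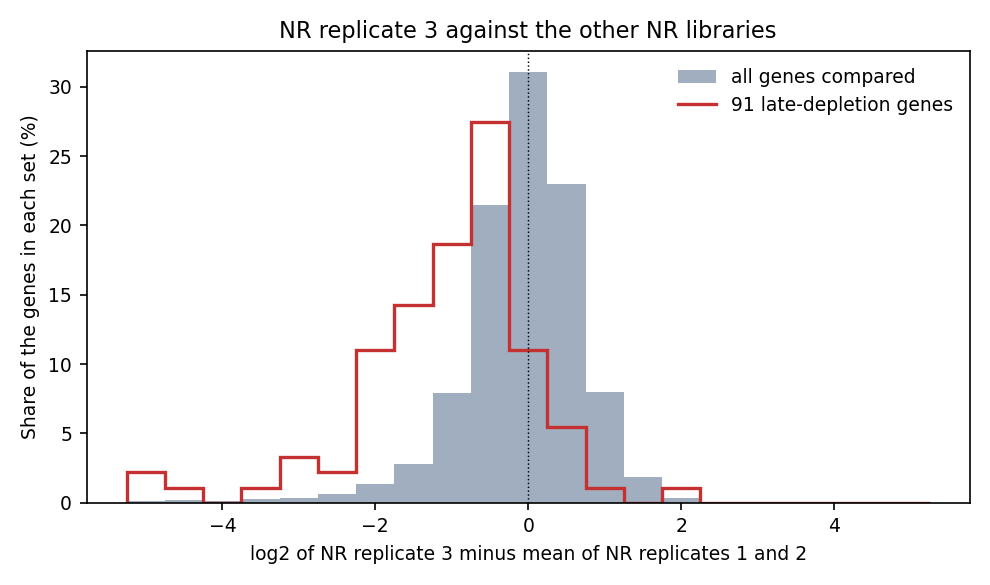
Distribution of log2 in NR replicate 3 minus the mean of NR replicates 1 and 2, as the share (%) of the 91 members (red line) and of the 8580 tested genes with an LND mean of at least 50 (grey). The members' median is -0.84 and that of all these genes -0.014.

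Only 63 of the 91 genes were still chosen without NR replicate 3. Of the 28 lost, 22 fell under the excess of 1.5 and 13 passed the limit for NL1 or NL2, 12 of these with an NL condition at least 1 log2 unit below NR. No member lost its rise, and the lowest excess over all 91 without this library was 1.08 log2 units. What changed was the course before it. Without NR replicate 3 both NL conditions lay below NR in 62 members (68.1%) in place of 40 (44.0%), beside 46.0% and 45.8% of all tested genes. The median of NL2 minus NR went from -0.09 to -0.30 log2 units, against -0.018 and -0.019 over all tested genes. The 91 genes were chosen with this library in the NR mean, and it was low in most of them. Leaving it out raises their NR mean, so part of the shift follows from the choice. The count of members with both NL conditions below NR was chosen after the data had been seen.

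In that setting edgeR called 10 members in NL2 vs. NR, all lower in NL2, beside 21.7% of all genes, and 5 in NL1 vs. NR, 4 of them lower, beside 19.3%. The 10 were POR0508, POR1698, POR2732, POR3533, POR3717, POR5018, POR6677, POR7083, POR7395 and POR8716. They include the glutathione S-transferase, the small heat shock protein and the RMD5-like gene as well as 2 of the 3 genes with the largest rise. In POR3533, for example, the NR mean without replicate 3 was 2650 normalised counts and NL2 lay 1.28 log2 units below it. For these genes the statement that they changed by less than 1 log2 unit before LND thus rests on NR replicate 3. POR1446, POR0986, POR0345, POR3240, POR6842, POR5127 and POR9835 were chosen with and without it.

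POR4095, a hypothetical protein gene, followed another pattern. It had 1215, 1418 and 6153 normalised counts in NR, 6462, 6446 and 1845 in NL1, 2052, 1712 and 2108 in NL2, and 19704, 19009 and 19000 in LND. Its 9 earlier libraries fell into a low set of 1215 to 2108 and a high set of 6153 to 6462, which cut across NR and NL1. It is 1 of the 10 members in which NR replicate 3 was not low, and the 3 LND libraries agreed closely.

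Between the nitrogen-limited conditions the rule set no direction, since NL1 and NL2 enter it in the same way. NL2 lay below NL1 in 65 of the 91 members (71.4%), against 50.6% of all 8983 tested genes and 49.4% of the 6755 among them with NL1 and NL2 within 1 log2 unit of NR. The median of NL2 minus NL1 was -0.12 log2 units over the members and -0.0036 over all tested genes. With each of the 6 NL1 and NL2 libraries left out in turn, NL2 was below in 60 to 71 members. The 3 NL2 libraries lay below all 3 NL1 libraries in 18 members, where 7.5% of tested genes did so, and above them in 2, where 7.39% did.

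The shifts were small, and none passed the test. In NL2 vs. NL1 edgeR called 0 of 91 members, beside 0% of all 9104 genes tested. DESeq2 called 0 of the 61 members to which its likelihood ratio test gave an adjusted p, and 0 of 53 with its Wald test. An unadjusted p under 0.05 was found for 19 members (20.9%) against 9.08% of all genes. The lowest adjusted p among members in edgeR was 0.37, for POR3533, whose log2FC was -0.65 ± 0.13 (SE). POR0986 had a log2FC of -0.62 ± 0.16, POR1698 of -0.60 ± 0.14 and POR4095 of -1.33 ± 0.36 (SE), with edgeR adjusted p-values of 0.48, 0.47 and 0.48. Without NL1 replicate 3 POR4095 alone was called lower in NL2, beside 0.437% of all genes.

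**Figure D5:**
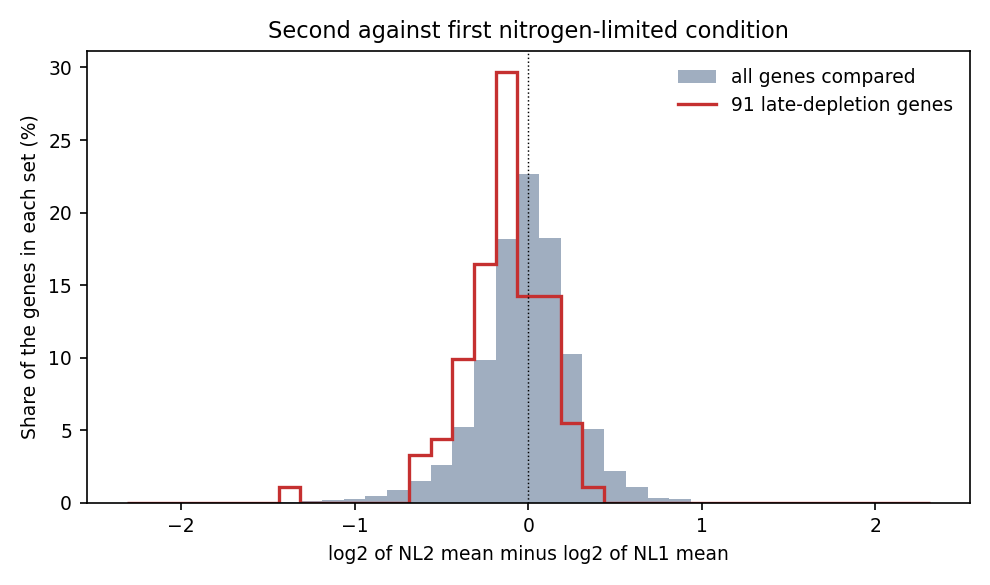
Distribution of log2 of the NL2 mean minus log2 of the NL1 mean, as the share (%) of the 91 members (red line) and of the 8983 tested genes (grey). The members' median is -0.12, and the single cell far to the left is POR4095 at -1.33.

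Each LND library was also left out of the choice in turn. Per the labels it is a technical replicate of the sample that chose the genes, and the 9 earlier libraries were used in the choice. The counts below therefore describe the agreement between LND libraries and are not independent evidence of the rise. When the rule was applied without LND replicate 1 it chose 92 genes, and in all 92 the library left out lay above all 9 libraries of the other conditions. Without LND replicate 2 this held for 92 of 92 genes and without LND replicate 3 for 98 of 99. The library left out lay at least 1.5 log2 units above the highest other condition in 75, 84 and 75 of these genes, with medians of 1.80, 1.83 and 1.74 log2 units. The other LND libraries chose these genes, so high counts largely follow from the choice. No share of all genes is given for this single-library measure, so the counts are not set against a background.

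Members were spread over 17 of the 52 scaffolds named in the table. The scaffolds scf295_1, scf208_2 and scf209_3 held 29, 14 and 11 members, which is 31.9%, 15.4% and 12.1% of the members against 26.5%, 12.1% and 10.8% of all genes. The scaffolds scf222_8 and scf227_4 held 7 each, or 7.69% of the members, against 3.96% and 8.52% of all genes. On the small scaffold scf226_27, 2 of 28 genes were members. These differences were not tested. No position on the scaffold is given in the file.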

How the data were processed

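Stranded mRNA libraries of 12 samples (4 conditions, 3 libraries each) were read as paired ends. The authors aligned reads with STAR 2.7.8a, counted them per gene with featureCounts 2.0.1 on version 2 gene models and deposited raw counts without normalization. The strand setting is not given in the sources used here, so overlapping genes may share reads. All 12 count columns were matched to samples by their labels (0 unmatched), and each library held 6398926 to 30556820 counts. Libraries of 1 condition differed beyond counting error (chi-square over degrees of freedom 11.2 to 96.9). The paper speaks of technical and of biological replicates of the RNA, and the labels, followed here, give technical ones.

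Members were found with DESeq2 size factors, computed in Python 3.11.15 and checked against DESeq2 1.42.0. For each pair of conditions a quasi-likelihood F-test was run on the 6 libraries concerned (edgeR 4.0.16, R 4.3.3), after filterByExpr at a minimum count of 10 and TMM scaling, with Benjamini-Hochberg adjustment over all genes tested. All 91 members passed the filter in every fit. The SE of an excess is that of the difference between mean log2 values of 2 conditions of 3 libraries. The SE of a log2FC is its size over the square root of F. Rule and fits were run on simulated counts with known changes in LND only. These had the same dispersion for all genes and no library that stood apart, so they do not cover a case like NR replicate 3.

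The members and lists were chosen with earlier results of these data known. Named are members with an entry in the study's tables as read here, the 10 with the highest LND mean and the 10 with the largest excess. Those nearest each threshold, and the 5 with NL1 and NL2 highest above and lowest below NR, are named too. POR3717 and POR6053 and genes outside the rule that are named for a count of calls were added after their values were seen. Alternatives were other scalings, pseudocounts, filters, tests, rule thresholds, a replicate block and leaving out each library.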

Additional observations from a re-analysis of the deposited data

How the results depend on the processing

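The number of genes chosen was 91, and 71 to 104 with each library left out in turn, the lowest without NR replicate 3. In all 12 of these settings 52 of the 91 were chosen. TMM scaling gave 98 genes, 90 of them shared, and the median of the libraries in place of the mean gave 84, 68 of them shared. With library totals alone 44 were chosen, all of them among the 91, as that scaling shifted LND minus NR by a median of -0.34 log2 units over all genes, while every member still had a positive excess, the lowest 1.17. With a required excess of 1 in place of 1.5 there were 283 genes, with 2 there were 26, and with an NL limit of 0.5 there were 58. Without 1 library, counts of members called higher ran from 73 to 89 in LND vs. NR, 89 to 90 in LND vs. NL1 and 89 to 91 in LND vs. NL2. Counts of members called in either direction ran from 0 to 5 in NL1 vs. NR, 0 to 10 in NL2 vs. NR and 0 to 1 in NL2 vs. NL1. Of the 5, 4 were lower in NL1, and the 10 and the 1 were all lower in NL2. The other tests, scalings and filters left all 6 counts within 1.5 times their value. Both NL conditions lay below NR in 40 members, 32 to 62 without 1 library, with 62 for NR replicate 3. NL2 lay below NL1 in 65, and in 60 to 71 without 1 library. The replicate numbers showed no pairing: equally numbered libraries deviated together with correlations of -0.26 to 0.11, and in 5 of 18 pairs the own number gave the best match. With a replicate block 86, 91 and 90 members were called higher in LND and 0 in each other comparison. For the excess of the 35 named members, 540 of 560 values moved by less than the spread of libraries and none changed sign, and 16 of the 20 that moved did so with library totals and 4 without NR replicate 3. That spread includes NR replicate 3, which could widen it where NR was the highest other condition. POR3533, for example, had an SE of 1.01 and an excess of 4.59 log2 units, or 4.09 without that library. Without NR replicate 3, 14 of the 35 named members were no longer chosen. In NR replicate 3 POR2362 and POR8509 had 0 counts, which allows up to 3 counts or 8.33 normalised counts by counting error alone, beside means of 31.7 and 38.7 in NR replicates 1 and 2.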

Other observations

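The sign-reversed rule, for genes at least 1.5 log2 units lower in LND than in each other condition with NL1 and NL2 within 1 log2 unit of NR and means of at least 50 there, chose 29 genes against the 91 that rose. In these 29 genes NR replicate 3 lay below the other NR libraries in 10, with a median offset of 0.17 log2 units, where the median of the 91 was -0.84. Both rules use the NR mean, which holds NR replicate 3, so a difference in this direction partly follows from the choice. With the rule for rising genes applied without that library, the median offset was -0.65 log2 units over the 71 genes chosen. No such value is given for the sign-reversed rule. The sets of 29 and 91 genes were set side by side after the data had been seen, and the difference between them was not tested.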
